A study of Homo sapiens with 15 samples.

Results

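The genes described here are EGR1, DUSP6, FOSL2, NR4A2, NR4A3, KLF2 and AREG, 7 immediate-early and growth-factor response genes among the 4872 genes that 4 deposited comparison tables list. They were taken by gene name and were chosen by their listed fold changes and adjusted p-values against the PD45 control, known from earlier results of these data. The levels against that control are therefore given as a description, and the adjusted p-values beside them are the authors' own selection values. Expression was measured by RNA sequencing in WI-38, a line of human fetal lung fibroblasts that stops dividing after a limited number of passages.

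The 15 libraries form 5 groups of 3. PD30 cells, labelled as 30 generations, received DMSO and lipo3000, a lipofection reagent. PD45 control cells, labelled as 45 generations, received DMSO and lipo3000 with NC, read as a control siRNA. The siSRC2 and siSRC4 groups are PD45 cells with DMSO and lipo3000 with an siRNA against the kinase gene SRC, and the GW8510 group is PD45 cells with the kinase inhibitor GW8510 and lipo3000 with NC. The inhibitor's group carries no DMSO label and the PD30 group no NC label, so compound and vehicle, and passage and control siRNA, cannot be told apart. Dose and duration of GW8510 are not in the labels. All groups are the same cell line, and the labels do not tell whether replicate libraries are separate cultures. Any p-value below covers only the spread among the sequenced libraries, which may be technical.

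Immediate-early genes are transcribed within minutes of a growth-factor or stress signal, without new protein synthesis, and their RNAs are short-lived. In fibroblasts, growth factors act through receptor tyrosine kinases, Ras and the kinase ERK, which activates ternary complex factors at serum response elements of genes such as EGR1. ERK also induces its own inhibitors, among them the phosphatase DUSP6 and the Sprouty proteins. NR4A receptors respond to cAMP and calcium through CREB sites, and KLF2 responds to the MEK5-ERK5-MEF2 cascade.

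RefSeq promoter windows (build GRCh38.p14, 250 bases before and 50 after each gene start) were found for 6 of the 7 genes, with NR4A2 the exception. The 250 upstream bases of 4 of them are printed 5′ to 3′ on the gene's strand. EGR1, AREG and DUSP6 are shown because they were lower together with GW8510, and NR4A3 because it was higher with siSRC2. Capitals mark every match of the motifs searched.
EGR1, chr5:138465229-138465478, plus strand: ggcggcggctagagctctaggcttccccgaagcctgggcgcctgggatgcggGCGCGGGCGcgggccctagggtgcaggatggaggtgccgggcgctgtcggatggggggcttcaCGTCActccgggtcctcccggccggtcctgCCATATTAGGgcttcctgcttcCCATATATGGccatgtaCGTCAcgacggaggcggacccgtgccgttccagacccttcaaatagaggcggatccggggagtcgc
AREG, chr4:74444886-74445135, plus strand: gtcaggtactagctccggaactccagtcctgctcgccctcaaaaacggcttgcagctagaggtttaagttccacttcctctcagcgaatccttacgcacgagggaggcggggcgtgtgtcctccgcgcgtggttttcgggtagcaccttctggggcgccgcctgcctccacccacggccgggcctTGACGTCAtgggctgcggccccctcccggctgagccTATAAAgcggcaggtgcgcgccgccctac
DUSP6, chr12:89352502-89352751, minus strand: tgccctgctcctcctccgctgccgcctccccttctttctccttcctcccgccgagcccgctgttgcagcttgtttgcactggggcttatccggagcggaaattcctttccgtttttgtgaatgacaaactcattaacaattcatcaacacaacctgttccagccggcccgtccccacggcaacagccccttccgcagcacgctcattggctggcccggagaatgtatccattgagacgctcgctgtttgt
NR4A3, chr9:99821635-99821884, plus strand: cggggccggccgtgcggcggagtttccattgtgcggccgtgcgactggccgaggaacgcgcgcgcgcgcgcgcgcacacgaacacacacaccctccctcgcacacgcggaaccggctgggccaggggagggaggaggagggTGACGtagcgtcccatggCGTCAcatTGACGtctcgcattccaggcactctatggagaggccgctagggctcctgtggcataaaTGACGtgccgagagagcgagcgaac

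The motifs were searched on both strands of the whole windows: the CArG box, which is the core of the serum response element, the cAMP response element (CRE) TGACGTCA, its core TGACG, the AP-1 site TGANTCA, the EGR site GCGNGGGCG, the NR4A site AAAGGTCA and the TATA box TATAAA. EGR1 held 2 CArG boxes, CCATATTAGG and CCATATATGG, starting 105 and 83 bases before the gene start, and 1.29% of 35116 promoter windows held at least 1. It also held 1 EGR site, a motif present in 9.43% of windows, and 2 CRE cores. AREG held the full CRE, 65 bases before the start, which 1.85% of windows hold, and a TATA box 29 bases before the start, which 11.5% hold. The 2 CRE cores counted in AREG lie within that full CRE.

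NR4A3 held 4 CRE cores, a short motif found in 24.6% of windows. FOSL2 held 2 CRE cores and 1 AP-1 site, the latter 5 bases after the gene start, and 7.71% of windows hold an AP-1 site. KLF2 held 2 EGR sites and no CArG box. None of these letters were found in the DUSP6 window. The NR4A site, held by 1.22% of windows, was in none of the 6. A match describes the sequence of the window and does not show that a factor binds there.

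**Figure D1:**
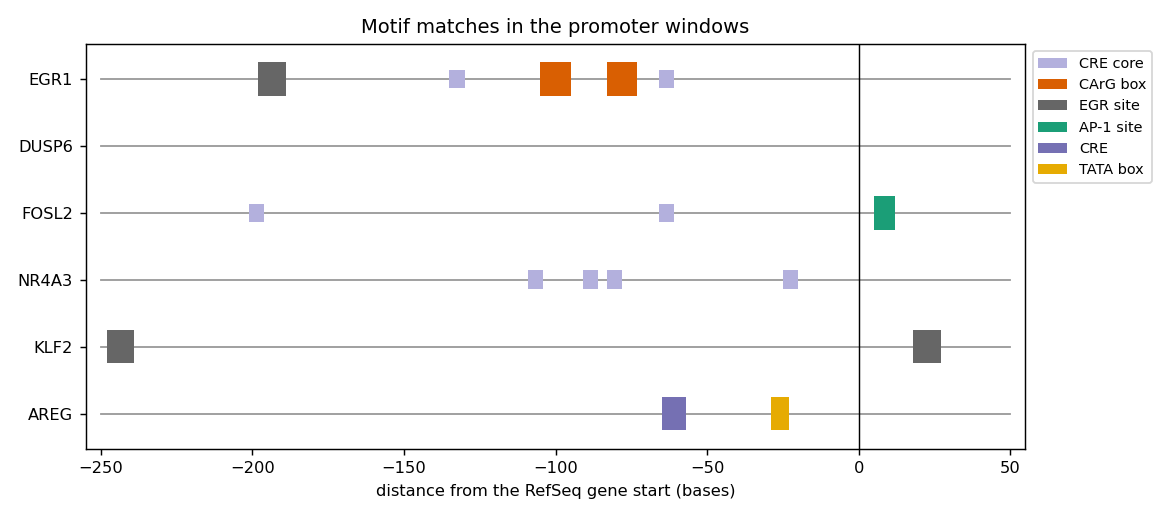
Motif matches in the promoter windows of the 6 genes with a RefSeq entry, by distance from the gene start in bases, where each coloured block is 1 match. The 2 CArG boxes lie in the EGR1 window, the full CRE and the TATA box in the AREG window (its 2 CRE cores are hidden under the CRE), and the DUSP6 line is empty.

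Across the 4 tables the 7 genes had 13 of 28 possible listings, 5 in the GW8510 table (2 higher, 3 lower), 2 in that of PD30 (1 higher, 1 lower), and 3 each in those of siSRC2 and siSRC4 (2 higher, 1 lower in each). DUSP6 and NR4A2 were listed in 3 tables each, FOSL2 and KLF2 in 2, and EGR1, AREG and NR4A3 in 1. Of all genes the authors tested, the tables list 11.8% for GW8510, 15.3% for PD30, 2.64% for siSRC2 and 8.77% for siSRC4. By direction, higher and lower genes made up 4.59% and 7.26% of tested genes for GW8510, 8.24% and 7.07% for PD30, 1.38% and 1.26% for siSRC2, and 3.91% and 4.86% for siSRC4. Because the listings were known when the genes were chosen, nothing is read from the comparison of these shares. Absence from a table does not show that a gene kept its level, and its signal in that group was not analysed here.

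The values are the deposited normalized signals, whose unit the headers do not name, so levels are compared between groups for 1 gene and not between genes. Read depth per library is unknown, and no counting interval is given. In bulk RNA, fewer cells expressing a gene and less RNA per cell cannot be told apart. The knockdown target SRC stood at 57.0% of the PD45 control with siSRC2 (11.3 ± 0.580 against 19.8 ± 0.766, SD, n = 3) and at 54.6% with siSRC4 (10.8 ± 1.16). Of 10 fibroblast markers 4 were listed in some table, VIM, COL3A1, PDGFRA and FN1, and their levels moved in different directions. Mean VIM was 3225 in the PD45 control and 5407 at PD30, and PDGFRA 27.0 and 40.2. COL3A1 was 115 in the PD45 control, 377 at PD30, 202 with GW8510 and 225 with siSRC2, while FN1 was 3530 in the PD45 control and 1325 with GW8510. Of 5 endothelial markers only TEK was listed, of 6 epithelial markers KRT8 and KRT18, and of 4 immune markers CD68. TEK had means of 7.39 in the PD45 control, 29.7 at PD30 and 12.5 with siSRC2. KRT8 and KRT18 were listed as lower at PD30 and CD68 as lower with GW8510, at 28.1 against 48.0. The remaining markers are outside the tables, so no summed marker level can be given, and the part of other cell types in the results was not tested.

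EGR1 encodes a zinc-finger transcription factor that ERK induces through serum response elements. Its signal in the PD45 control was 17.24, 16.38 and 10.84, and with GW8510 it was 3.88, 3.51 and 4.12. Control and treated libraries did not overlap, and the lowest control library was still well above the highest treated one. The means were 14.8 ± 3.47 and 3.84 ± 0.307 (SD, n = 3), so EGR1 stood at 25.9% of the control. The authors' deposited table gave a log2 fold change of -1.82 (adjusted p = 3.63e-29), the 71st largest fall among 1130 genes listed as lower. EGR1 was listed for no other group.

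AREG encodes amphiregulin, a membrane-bound ligand of the EGF receptor that is released by shedding. It had the largest fall of the 7 genes. The control libraries held 12.24, 8.88 and 5.59, a wide spread, and the GW8510 libraries 1.16, 1.47 and 0.91. All treated libraries lay below all control libraries. The mean was 1.18 ± 0.281 with GW8510 against 8.90 ± 3.33 (n = 3), a level 7.55-fold lower, and the authors' deposited table ranked it 12th of 1130 falls at a log2 fold change of -2.75 (adjusted p = 6.86e-16).

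DUSP6 encodes a cytoplasmic phosphatase that inactivates ERK and is itself an ERK target. Its control signal was 46.14, 38.08 and 38.19. It was listed as lower in 3 groups, with 17.02, 17.06 and 20.04 at PD30, 21.56, 21.01 and 22.48 with GW8510, and 30.38, 26.97 and 25.40 with siSRC4. None of these 9 libraries reached the lowest control library. Mean levels were 44.2%, 53.1% and 67.6% of the control for PD30, GW8510 and siSRC4. The authors' deposited tables gave log2 fold changes of -1.24, -0.93 and -0.61, with adjusted p-values of 8.46e-51, 7.57e-28 and 1.48e-09. The comparisons share the PD45 control libraries. Relative to all falls of the same table, the decrease was of middling rank for PD30 (520 of 1314) and GW8510 (398 of 1130), and among the smaller ones for siSRC4 (647 of 709).

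The order of DUSP6 levels was thus PD30, GW8510, siSRC4 and PD45 control, from low to high. The differences between the first 3 were not themselves used in choosing the genes. The fold changes known at the choice come from the same libraries, so the tests are not independent of the choice. These differences were tested by limma on log2(signal + 1), over all genes listed in both tables concerned, with Benjamini-Hochberg adjustment. Among those are genes on opposite sides of the control in the 2 groups, whose difference the listing fixes. Including them raises the share that passes and can lower the adjusted p-values of the others. In all, 7 differences between groups were tested for the 7 genes, in 5 pairs of groups. PD30 lay below siSRC4 by -0.59 ± 0.115 log2 (SE, limma adjusted p = 0.000753), in a comparison where 60.4% of 374 genes passed. The neighbours in the order did not pass. PD30 minus GW8510 was -0.26 ± 0.106 (limma adjusted p = 0.0567), where 66.4% of 512 genes passed, and GW8510 minus siSRC4 was -0.33 ± 0.133 (limma adjusted p = 0.0822), where 34.7% of 291 passed, although in neither case did the libraries overlap.

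These 2 calls near the threshold moved with the setting. The median of all genes compared was 0.17 log2 for PD30 minus GW8510 and -0.18 for GW8510 minus siSRC4. After centring on that median the PD30 minus GW8510 difference in DUSP6 was -0.43 (limma adjusted p = 0.00502). Without PD30 replicate 3 it was -0.33 (adjusted p = 0.0336, limma), and over its 11 alternatives the adjusted p ran from 0.00502 to 0.163. Without siSRC4 replicate 3 the GW8510 minus siSRC4 difference was -0.39 (limma adjusted p = 0.0372), in a range from 0.0372 to 0.497.

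FOSL2 encodes FRA2, a FOS-family subunit of the AP-1 transcription factor. Its control libraries were tight at 16.60, 17.58 and 15.92. With GW8510 the signal was 25.19, 24.96 and 27.22, and with siSRC4 it was 25.40, 27.43 and 31.36. All 6 treated libraries lay above the controls, and the treated groups overlapped each other. The ratio to the control was 1.54 for GW8510 and 1.68 for siSRC4. The authors' deposited tables gave 0.79 (adjusted p = 6.54e-26) and 0.75 (adjusted p = 4.72e-09) as log2 fold changes, against the shared control. The direct difference, GW8510 minus siSRC4, was -0.11 ± 0.137 log2 and did not pass (limma adjusted p = 0.588). It turned to 0.064 (limma adjusted p = 0.804) after centring, and leaving out 1 library gave -0.18 to -0.03, so no order of the 2 groups can be read.

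NR4A2 encodes the orphan nuclear receptor NURR1, a fast-induced transcription factor. The control signal was low, at 2.28, 1.90 and 1.66. It was 3.92, 3.99 and 4.16 at PD30, 5.06, 4.42 and 3.84 with siSRC2, and 4.67, 3.12 and 2.30 with siSRC4. The PD30 and siSRC2 libraries stood clear of the controls, while the lowest siSRC4 library was only just above the highest control. The ratios of means were 2.07, 2.28 and 1.73, in that order. The authors' deposited tables gave log2 fold changes of 0.97, 1.06 and 0.64, with adjusted p-values of 1.18e-06, 4.97e-07 and 0.0365. Among 173 genes listed as higher with siSRC2, NR4A2 ranked 19th, against 973rd of 1531 at PD30 and 480th of 571 with siSRC4.

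The siSRC4 value rests in good part on 1 library. Without siSRC4 replicate 1, at 4.67, the log2 ratio to the control was 0.48 in place of 0.79. None of the 3 differences between the raised groups passed: PD30 minus siSRC2 was -0.11 ± 0.121 (62.9% of 143 genes passed), PD30 minus siSRC4 was 0.24 ± 0.190, and siSRC2 minus siSRC4 was 0.35 ± 0.209 (27% of 100 genes passed). The limma adjusted p-values were 0.468, 0.318 and 0.336. Without siSRC4 replicate 1 the PD30 minus siSRC4 difference was 0.45 (limma adjusted p = 0.0323), in a range over its alternatives from 0.0323 to 0.795. Without siSRC4 replicate 3 it was 0.055. The siSRC2 minus siSRC4 difference was 0.55 without siSRC4 replicate 1 (limma adjusted p = 0.0602) and 0.16 without replicate 3 (limma adjusted p = 0.583). PD30 minus siSRC2 was -0.03 without siSRC2 replicate 1 and -0.19 without siSRC2 replicate 3, and neither passed.

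NR4A3, which encodes the related receptor NOR1, was listed for siSRC2 alone. Its signal was 0.95, 0.84 and 0.70 in the control and 1.24, 1.56 and 1.57 with siSRC2. The groups did not overlap, but all values were low, and a pseudocount of 1 brought the log2 ratio from 0.81 to 0.42. The authors' deposited table gave 0.74 (adjusted p = 0.00922). NR4A2 and NR4A3 were thus both listed as higher with siSRC2, while NR4A1, the remaining member of the family, was listed in no table.

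KLF2 encodes a Krüppel-like transcription factor best known from endothelial cells under flow. Of the 4 genes listed in at least 2 tables, KLF2 alone lay on opposite sides of the control in different groups. Control libraries held 6.58, 9.24 and 3.68, a coefficient of variation of 42.8%. With GW8510 the signal was 22.61, 12.44 and 21.93, all above the controls, and with siSRC2 it was 3.81, 3.60 and 2.70. The highest siSRC2 library exceeded the lowest control library, which made this the 1 of 13 listings whose libraries overlapped. Across all listed genes, 90.6% did not overlap in the GW8510 table and 90.6% in the siSRC2 table, 93.6% for PD30 and 88.8% for siSRC4.

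Mean KLF2 signal was 19.0 ± 5.69 with GW8510, 6.50 ± 2.78 in the control and 3.37 ± 0.590 with siSRC2 (SD, n = 3). That is 2.92-fold the control with GW8510 and 51.8% of it with siSRC2. The authors' deposited tables gave log2 fold changes of 1.73 (adjusted p = 1.91e-22) and -0.71 (adjusted p = 0.00327). KLF2 was the 35th largest of 715 rises with GW8510. Without control replicate 2, at 9.24, the siSRC2 log2 ratio was -0.61 in place of -0.95. The groups lie on opposite sides by the way the genes were listed, so their difference was not tested.

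**Figure D2:**
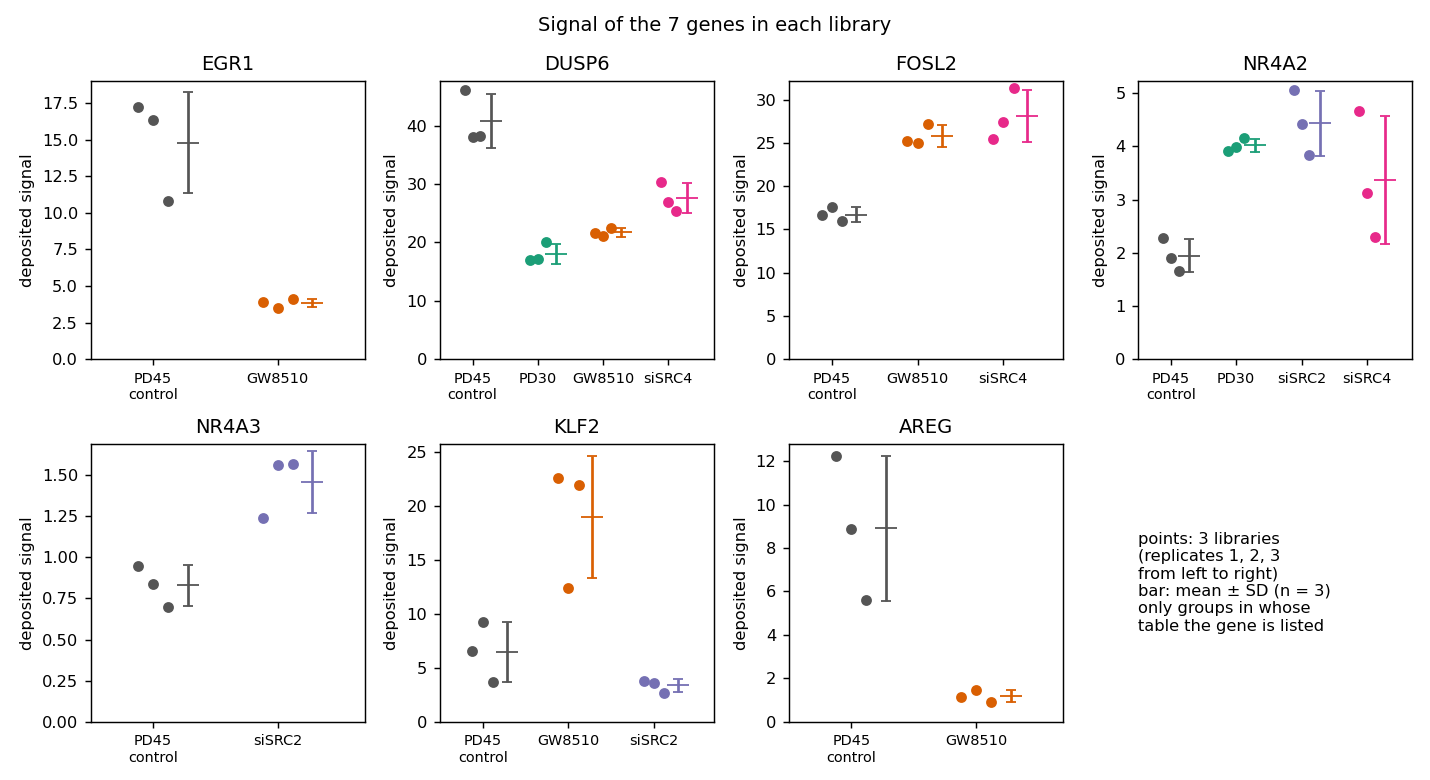
Deposited signal of each of the 7 genes in every library of the groups where it is listed and in the PD45 control, with points for the 3 libraries and a bar for the mean ± SD. EGR1 and AREG with GW8510 lie far below all control libraries, DUSP6 is lower in 3 groups, and the KLF2 control libraries spread from 3.68 to 9.24.

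The PD45 control is shared by all of these comparisons, and its libraries differed for several of the genes. Control replicate 3 was the lowest of the 3 for 6 of the 7 genes, DUSP6 being the exception, and for 53.5% of 3950 listed genes with a mean control signal of at least 1. The control coefficient of variation was 42.8% for KLF2, 37.3% for AREG and 23.4% for EGR1, against a median of 11.7% over those 3950 genes and a 90th percentile of 27.9%. It was 5.00% for FOSL2 and 11.3% for DUSP6. Leaving out control replicate 3 changed the direction of none of the 13 ratios. For the 12 listings whose libraries did not overlap the control it could not have done so.

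In the authors' deposited tables the median absolute log2 fold change of the listed ones was 1.73 for GW8510 (5 genes), beside 0.81 over all listed genes. It was 1.11 beside 1.08 for PD30 (2 genes), 0.74 beside 0.75 for siSRC2 (3 genes) and 0.64 beside 0.78 for siSRC4 (3 genes). These medians cover different genes in each table and values that chose the genes, so they are not compared across treatments. At least 2-fold changes were those of EGR1, AREG and KLF2 with GW8510, DUSP6 at PD30 and NR4A2 with siSRC2. The authors' fold changes for GW8510 exceeded the log2 ratios of signals by a median of 0.12 over all listed genes, and FOSL2 shows this, with 0.79 against a signal ratio of 0.63 on the log2 scale.

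**Figure D3:**
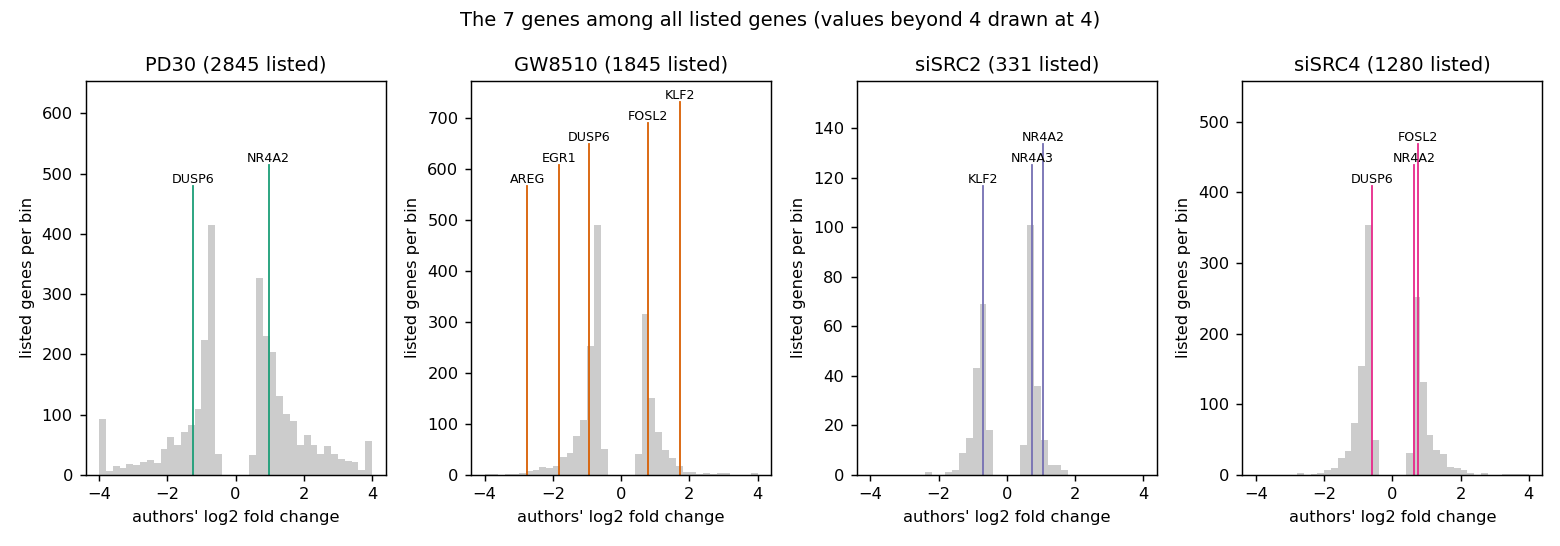
Authors' log2 fold change against the PD45 control for all genes of each table (grey, genes per bin of 0.2), with the listed ones of the 7 genes as coloured lines. With GW8510, AREG at -2.75, EGR1 at -1.82 and KLF2 at 1.73 lie in the tails, and DUSP6 at -0.61 with siSRC4 lies at the inner edge.

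Genes listed as higher and as lower with GW8510 differed in base composition. Median transcript GC content was 56.3% for genes listed as higher and 41.6% for those listed as lower, from the longest coding transcript in GENCODE 29. EGR1, which was lower, had 55.4%, near the median of the genes that were higher, and AREG and DUSP6 had 45.3% and 46.7%. KLF2 and FOSL2, which were higher, had 65.2% and 53.3%. The gap was not particular to GW8510. For siSRC4 the medians were 56.4% for genes listed as higher and 41.1% for those listed as lower. At PD30 they were close, at 49.4% for higher and 48.1% for lower genes. With siSRC2 the gap was reversed, at 47.7% for higher and 53.3% for lower genes. The part of composition in the changes of any group was not tested. DUSP6 and FOSL2 each overlap an annotated antisense gene, and strand handling is not given in the sources used here, so reads of the antisense partner cannot be told apart from theirs. FOSL2 also overlaps a gene annotated as sense intronic, on its own strand, which strand handling would not separate.

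The surrounding pathway was described by 13 lists with 104 genes, including the 7. Of the 97 other genes, the authors' tables list 21 for GW8510 (8 higher, 13 lower), which is 21.6% beside 11.8% of all tested genes. For PD30 they list 15 (3 higher, 12 lower), 15.5% beside 15.3%, and for siSRC4 6 (4 higher, 2 lower), 6.19% beside 8.77%. None of the 97 was listed for siSRC2, where 2.64% of tested genes were, and counts at other p-values need genes outside the table. The list shares divide by all 97 symbols, whether or not the authors tested them, and the shares beside them by tested genes. The bases thus differ, here and for the single lists below. On these bases the share for PD30 was close to that of all genes, and no test of any list was made. Their median absolute log2 fold change was 0.78 for GW8510, beside 0.81 over all listed genes.

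Among EGF receptor ligands, EREG, which encodes epiregulin, was lower with AREG in the GW8510 group, at 2.03 ± 0.340 against 4.63 ± 0.984 in the control (authors' log2 fold change -1.06, adjusted p = 9.51e-08). The sheddase gene ADAM10 was lower there too, at 83.0 ± 2.46 against 136 ± 0.692. It was the only listed gene of 8 EGF receptors, inhibitors and sheddases, 12.5% beside 11.8% of all tested genes. ADAM17, the other sheddase gene of that list, was listed for no group. At PD30, 3 of 8 ligands were listed, all lower, where 15.3% of all tested genes were listed and 7.07% were lower. HBEGF, the heparin-binding ligand, was 4.10 ± 0.142 against 11.5 ± 0.405, and EREG 2.16 ± 0.108. TGFA was also listed, at 0, 0.10 and 0.01 against 0.85, 0.12 and 0.10, values too low and too overlapping to give a size. HBEGF was listed in the opposite direction for siSRC4, at 18.8 ± 0.806, which is 1.64-fold the control. The receptors EGFR, ERBB2, ERBB3 and ERBB4 were in no table.

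Of the 6 EGR factors and co-repressors, 4 were listed for GW8510, all lower, and none for any other group. The tables list 11.8% of all tested genes for GW8510, 7.26% as lower, and with so few genes, EGR1 among them, no more is read from the count. NAB1 and NAB2 encode co-repressors that bind EGR proteins, and NAB2 is an EGR1 target. NAB2 fell 1.78-fold, to 18.6 ± 0.526 from 33.3 ± 2.14, and NAB1 had 3.05, 2.98 and 3.55 against 10.15, 5.43 and 5.17. EGR3 was listed as lower at very low signals, 0, 0.02 and 0.04 against 0.30, 0.19 and 0.08. FOS, the founding AP-1 subunit, was listed as lower, at 0.157 ± 0.10 against 0.923 ± 0.0950. That is opposite to FOSL2, but both FOS means lie under a signal of 1. ELK3, a ternary complex factor of serum response elements, was 2.62-fold lower with GW8510 and 1.60-fold lower at PD30.

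At PD30, 4 of 9 ERK-directed and stress phosphatases were listed, all lower, DUSP6 among them. Of 10 ERK-induced feedback and ETS genes 4 were listed, 3 lower and 1, PHLDA1, higher. Among all tested genes 15.3% were listed and 7.07% were lower. The side of the unlisted genes of these lists is not known, and no more is read from the counts. DUSP4, a nuclear ERK phosphatase, was 0.403 ± 0.0379 at PD30 against 2.78 ± 0.663, and DUSP5 was 22.4 ± 2.91 against 34.3 ± 0.255. DUSP8, a phosphatase of stress-activated kinases, was listed lower with overlapping libraries. SPRY4 and SPRY2, Sprouty inhibitors of Ras-ERK signalling, were 2.37-fold and 2.19-fold lower. ETV1, an ETS factor, was listed lower by -0.64 log2 with overlapping libraries. PHLDA1 was 2.08-fold higher at PD30, at 74.7 ± 0.779.

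With GW8510 the listed phosphatases split, with 4 of 9 listed, 2 higher and 2 lower. Of the 10 feedback and ETS genes 5 were listed, 1 higher and 4 lower. Among all tested genes 11.8% were listed, 4.59% as higher and 7.26% as lower. No more is read from these counts. DUSP4 and DUSP6 were lower, DUSP4 at 1.41 ± 0.240, while DUSP5 was 1.64-fold and DUSP1, an early stress- and growth-factor-induced phosphatase, 1.57-fold higher. ETV1, ETV4 and SPRY4 were 2.10-fold, 1.80-fold and 1.73-fold lower, and SPRY2, which the naming rule leaves out, 1.67-fold. SPRY1 was listed as higher, with a signal ratio of only 1.16 and overlapping libraries against the authors' log2 fold change of 0.63. Other immediate-early genes listed for GW8510 were ZFP36, which encodes an RNA-decay factor, and IER5, at 1.44-fold and 1.39-fold the control.

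ATF3, a stress-induced AP-1 partner, was the list gene with a change in 3 tables that did not keep its side. It was 44.9 ± 6.43 with GW8510, 27.3 ± 2.56 in the control, 17.8 ± 2.17 at PD30 and 14.3 ± 1.21 with siSRC4 (SD, n = 3). Its libraries did not overlap the control in any of the 3 comparisons. With siSRC4 the listed genes also held IER3, an ERK-induced survival factor, at 1.59-fold, and SPRED3, at 1.52-fold. BTG2, a growth-inhibitory early gene, was 1.85-fold lower at PD30.

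Of the 17 genes of the Ras-ERK cascade itself, 3 were listed for GW8510, 2 for PD30, 2 for siSRC4 and none for siSRC2. Beside the shares of all tested genes, that is 17.6% against 11.8%, 11.8% against 15.3%, 11.8% against 8.77%, and 0% against 2.64%. The list shares count all 17 genes, tested or not. HRAS was 1.38-fold and the ribosomal S6 kinase gene RPS6KA1 1.74-fold higher with GW8510, and RPS6KA3 was 1.76-fold lower. RPS6KA1 was 2.82-fold higher with siSRC4, at 4.35 ± 0.766 against 1.54 ± 0.0200, and SOS2, a Ras exchange factor, 1.64-fold lower. At PD30, RPS6KA2 and the ERK scaffold gene KSR1 were 2.57-fold and 1.97-fold higher. No gene of the ERK5-MEF2 list (6 genes) or of the CREB list (8 genes) was in any table. The tables list 2.64% to 15.3% of all tested genes, so lists this short can hold none, and no more is read from that.

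**Figure D4:**
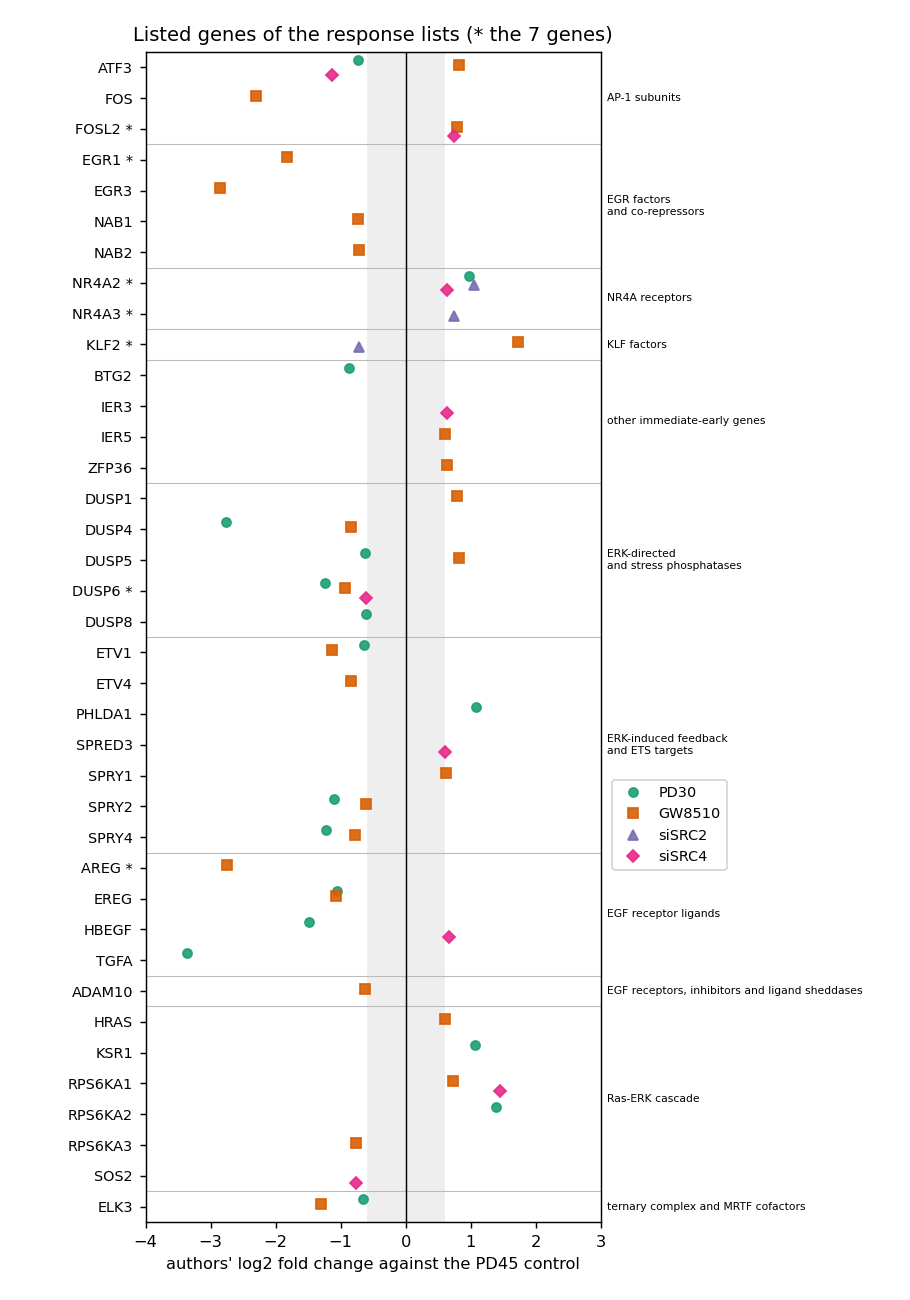
Authors' log2 fold change against the PD45 control for every listed gene of the 13 response lists, by list, with 1 symbol per group and the 7 genes marked by an asterisk. The grey band is the range under 1.5-fold that the tables do not hold. PD30 symbols of the phosphatase, Sprouty and ligand genes lie on the left, and GW8510 symbols lie on both sides.

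For the 4 genes listed in at least 2 tables, the genes with the most similar profile were taken by Pearson correlation of log2(signal + 1) over the libraries of the control and those groups, among genes listed in all of the same tables. The libraries share groups, so a high value mostly reflects common group differences, and no p is given. For KLF2 these were NOG, SYNPO2 and SH3TC2 (r = 0.97, 0.97 and 0.95 over 9 libraries, 93 candidates). For DUSP6 they were XRCC4, LRRN3 and SMURF2 (r = 0.97, 0.96 and 0.96 over 12 libraries, 127 candidates). FOSL2 had SOX12, KIAA1522 and MYORG (r = 0.98 each over 9 libraries, 293 candidates). NR4A2 had RCC2, ZSCAN29 and P4HA3 with lower values (r = 0.88, 0.87 and 0.86 over 12 libraries, 56 candidates).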

How the data were processed

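RNA of 15 WI-38 libraries was extracted with Trizol and sequenced, per the labels' protocols. Per the submitters' processing notes CASAVA, HISAT2, StringTie, RSEM, DESeq2 and edgeR were used, with no roles given, and the named build is GRCm38, a mouse assembly, although all gene identifiers are human, so no coordinates come from the files. Per the file headers, each of the 4 deposited tables gives a fold ratio, its log2, a p-value with its adjusted value, all computed by the authors, and a normalized signal per library. The deposited signal is TPM-like or FPKM-like, not stated which, and the depth is unknown. In every table all adjusted p-values lie under 0.05 and all folds reach 1.5 in either direction. Control values were identical between tables. The number of tested genes was taken as the adjusted p of each table's first gene divided by its p. That is exact only if this gene has the smallest p and its adjusted value was not carried from a later rank.

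Means, SD and ratios used Python 3.11.15 with pandas 2.3.3 and numpy 2.4.6. The table titled siSRC2 in its mean column has library columns named siSRC4, and that titled siSRC has columns named siSRC2, and the library names were followed. Groups with any of the 7 genes on the same side of the control were compared by limma 3.58.1 (R 4.3.3, trended variance prior). The fits used log2(signal + 1) of all genes in both tables, on either side of the control, with a mean signal of at least 1. The threshold was 0.05. The script was tested on simulated data with a constant spread and changes larger than any direct difference reported for the 7 genes. That test does not check calls on smaller differences or at low signals. Alternatives were the median, pseudocounts of 1 and 0.1, no filter, no trend, centring, leaving out each library, a replicate block, and stricter limits. Same-numbered GW8510 and siSRC4 libraries deviated together (r = 0.31, 0.14 and 0.27 over 291 genes), and the block changed no call on the 7 genes there.

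The 7 genes, the response lists and the rules were chosen with earlier results of these data known. List genes were named if their list had at most 4 listed genes in a table, otherwise the 4 with the largest fold change whose higher mean signal was at least 1. All 104 list symbols matched a gene name.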

Additional observations from a re-analysis of the deposited data

How the results depend on the processing

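The 13 log2 ratios of the 7 genes to the PD45 control kept their direction under all 130 alternatives, and 125 of these moved them by less than the spread between libraries. For the 12 listings whose libraries did not overlap the control, the median, the pseudocounts and leaving out a library could not turn the direction. The authors' fold change, 1 of the alternatives, is the value that chose the genes. The kept direction is therefore not read as support. A pseudocount of 1 gave 0.77 for NR4A2 at PD30, 0.88 for NR4A2 and 0.42 for NR4A3 with siSRC2, and -2.18 for AREG with GW8510, as it must for low signals. The authors' log2 fold change for FOSL2 with GW8510 was 0.79. Leaving out 1 library gave ranges of -2.13 to -1.83 for EGR1, -3.16 to -2.62 for AREG and 1.26 to 1.89 for KLF2 with GW8510. At a fold of at least 2 the tables held 3 of the 7 genes for GW8510, 1 for PD30, 1 for siSRC2 and 0 for siSRC4, and 8, 10, 1 and 2 of the 104 list genes, since fewer genes pass a stricter limit. Of the 77 alternatives of the 7 direct differences 4 brought a difference past the threshold and 1 turned its sign. Centring gave DUSP6 for PD30 minus GW8510 a difference of -0.43, past the threshold, and turned FOSL2 for GW8510 minus siSRC4 to 0.064, since the median of all genes compared differs between those groups. Leaving out 1 library gave ranges of -0.33 to -0.22 for DUSP6 between PD30 and GW8510, -0.39 to -0.26 for DUSP6 between GW8510 and siSRC4, and 0.055 to 0.45 for NR4A2 between PD30 and siSRC4. With the replicate number as a block, a pairing that the deviations of same-numbered libraries bear out in all 3 numbers only for GW8510 and siSRC4, the counts of genes passing were 344, 87, 222, 107 and 32 in place of 340, 90, 226, 101 and 27, and no call on the 7 genes changed. The depth behind each signal is unknown.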
